A study of Mus musculus with 2 samples.

Results

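The replication-dependent histone genes were taken as the protein-coding genes of the GENCODE M21 annotation whose symbol starts with Hist1h, Hist2h, Hist3h or Hist4h, and 67 of 21938 protein-coding genes met this rule. Chromatin accessibility was measured by ATAC-seq, in which a transposase cuts accessible DNA and leaves sequencing adapters there. The cells were primary erythroblasts, which are nucleated and give rise to red blood cells, from male C57BL/6J mice aged 5 to 6 weeks. There was 1 group with 2 biological replicates of 50000 cells each, and neither carried an engineered allele or a treatment in the labels. The replicates had a biosample each but the same donor identifier, so any spread between them may be technical, and with 1 group nothing was tested between conditions. A promoter was called open when the thresholded peak list of each replicate, filtered by the authors on the irreproducible discovery rate, had an interval within 1 kb of any start site that the annotation gives the gene.

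Replication-dependent histone genes encode the proteins that package newly copied DNA: the core histones H2A, H2B, H3 and H4, which form the nucleosome, and the linker histone H1, which binds the DNA between nucleosomes. They lie in clusters, have no introns in their classical transcripts, and are switched on in S phase by NPAT at a nuclear compartment called the histone locus body. Their messenger RNAs end in a conserved stem-loop that binds SLBP in place of a poly(A) tail. Erythroblasts divide as they mature, so they need new histones for each round of DNA copying.

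The thresholded lists held 17777 intervals in replicate 1 and 18837 in replicate 2, and their depth is unknown because they hold no read counts. The labelled cell type was checked against defining markers: the promoters of 12 of 12 erythroid and 5 of 5 proliferation genes were open, against 0 of 3 B cell, 0 of 3 T cell, 0 of 4 myeloid and 0 of 3 stem and progenitor genes. Enrichment below is the authors' fold of a summit over background, and it describes and ranks intervals within a list.

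Nearly all replication-dependent histone promoters were open in erythroblasts, and most of them with a low enrichment. The count was 63 of 67 in replicate 1 and 61 of 67 in replicate 2, and 61 were open in both (91.0%, 95% Wilson interval 81.8% to 95.8%), against 41.4% of all protein-coding genes. In the authors' longer, less strict lists 63 were open in both replicates (94%), against 46.6% of all protein-coding genes. When only intervals at or above the median enrichment of their list were used, 11 of 67 members met the call (16.4%, 9.42% to 27.1%), against 30.0% of all protein-coding genes. Among open promoters, this left 11 of 61 histone genes (18.0%) but 6592 of 9083 protein-coding genes (72.6%). The Wilson intervals cover counting error only, and members that share an interval are not independent.

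**Figure D1:**
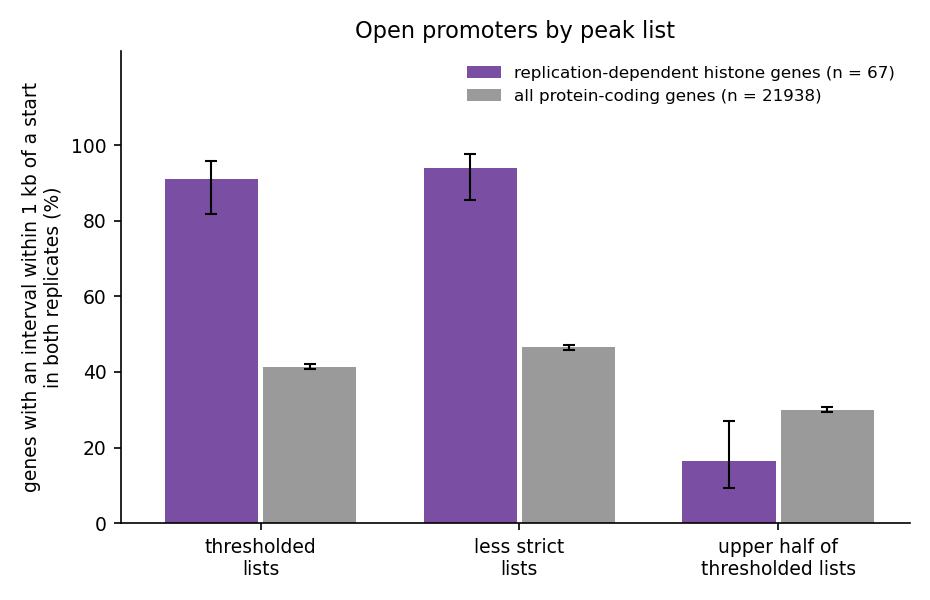
Percentage of genes with an interval within 1 kb of a start site in both replicates (y axis, %), for the 67 histone genes and for all 21938 protein-coding genes, by peak list (x axis); error bars are 95% Wilson intervals. The histone genes stand above all genes in the first 2 pairs of bars (91.0% and 94%) and below them in the last (16.4% against 30.0%).

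The strongest interval within 1 kb of an open histone start had a median enrichment of 6.25 in replicate 1 and 6.28 in replicate 2 (mean 6.26 ± 0.0236, SD, n = 2). Over all open protein-coding genes the medians were 9.73 and 9.86 (mean 9.80 ± 0.0904). The histone intervals ranked at the 28.7th and 30.5th percentile of their lists in the median. They were also narrow, with median widths of 420 bp and 432 bp against 897 bp and 887 bp over all open genes. Because histone genes lie close together, the strongest interval within 1 kb can belong to a neighbour, so the values per gene below are those of the interval nearest to the start. Its median enrichment was 5.99 and 6.21 (mean 6.10 ± 0.156).

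The replicates gave nearly the same value for each gene. The enrichment of an open member differed between replicates by 3.66% in the median and by at most 23.2%, at Hist1h4m. The nearest interval covered the start site itself at 63 of 63 members in replicate 1 and 61 of 61 in replicate 2. Its strongest summit lay upstream of the start at 57 and 55 of them, and within 150 bp of it at 48 in each replicate.

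By cluster, openness was near complete wherever the classical genes lie. Members less than 200 kb apart were joined into 6 groups, 3 of them on chromosome 13, named 13A, 13B and 13C here in order along the chromosome. In 13A, from the start of Hist1h2bl to that of Hist1h2br (chr13:21716143-21833771, mm10), 17 of 18 members were open. In 13B, from Hist1h2ah to Hist1h2bj (chr13:22035568-22043214), 5 of 5 were open. In 13C, from Hist1h4h to Hist1h2aa (chr13:23531050-23934462), 26 of 31 were open (83.9%, 67.4% to 92.9%). Outside chromosome 13, all 10 members of the chromosome 3 group (Hist2h2ab to Hist2h2bb, chr3:96219865-96269752), both on chromosome 11 (Hist3h2ba and Hist3h2a, chr11:58948920-58954685) and Hist4h4 on chromosome 6 were open.

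By the nearest interval, median levels were higher in 13A than in 13C and on chromosome 3, while the ranges over genes overlapped. Median enrichment of open members was 6.69 and 6.59 in 13A, 6.39 and 5.98 in 13B, 5.44 and 5.65 in 13C, and 5.27 and 5.24 on chromosome 3, for replicates 1 and 2. On chromosome 11 the 2 genes had a median of 7.29 and 6.98, and Hist4h4 on chromosome 6 had 4.86 and 4.77. Single genes ran from 3.37 to 8.47 in 13A, from 2.86 to 9.10 in 13C and from 4.59 to 8.49 on chromosome 3 in replicate 1. By the strongest interval within 1 kb, the medians were 6.76 and 6.25 on chromosome 3, against 6.69 and 6.59 in 13A. The order of these 2 groups thus differed between replicates by that measure. In 13C they were 5.54 and 5.88. The nearest-interval medians of 13A and chromosome 3 both include near-identical copies described below, whose values cannot be assigned to 1 gene. On chromosome 3 these are Hist2h3c1, Hist2h3c2, Hist2h2aa1 and Hist2h2aa2, at 4.60 to 5.36 in replicate 1. The other genes there had 4.59 (Hist2h2ab), 4.67 (Hist2h3b), 6.76 (Hist2h2ac and Hist2h2be), 6.81 (Hist2h4) and 8.49 (Hist2h2bb). In replicate 1 the order of 13A and chromosome 3 thus rests on the copies. The cluster difference was not tested.

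By histone type, 17 of 18 H2A, 17 of 18 H2B, 11 of 12 H3, 12 of 13 H4 and 4 of 6 H1 genes were open. Median enrichment of the open genes was highest for H2B (6.95 and 6.75, mean 6.85 ± 0.141), then H2A (6.66 and 6.41, mean 6.54 ± 0.177). H1 (5.12 and 5.04), H3 (5.00 and 4.96) and H4 (4.61 and 4.39) followed. In this order, H1 and H3 were the closest neighbours. H2B and H2A lay more than 1 unit above the other types in each replicate. The ranges over single genes overlapped between all 5 types. The type difference was not tested, and the pairing of H2A with H2B genes described below moves with it.

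**Figure D2:**
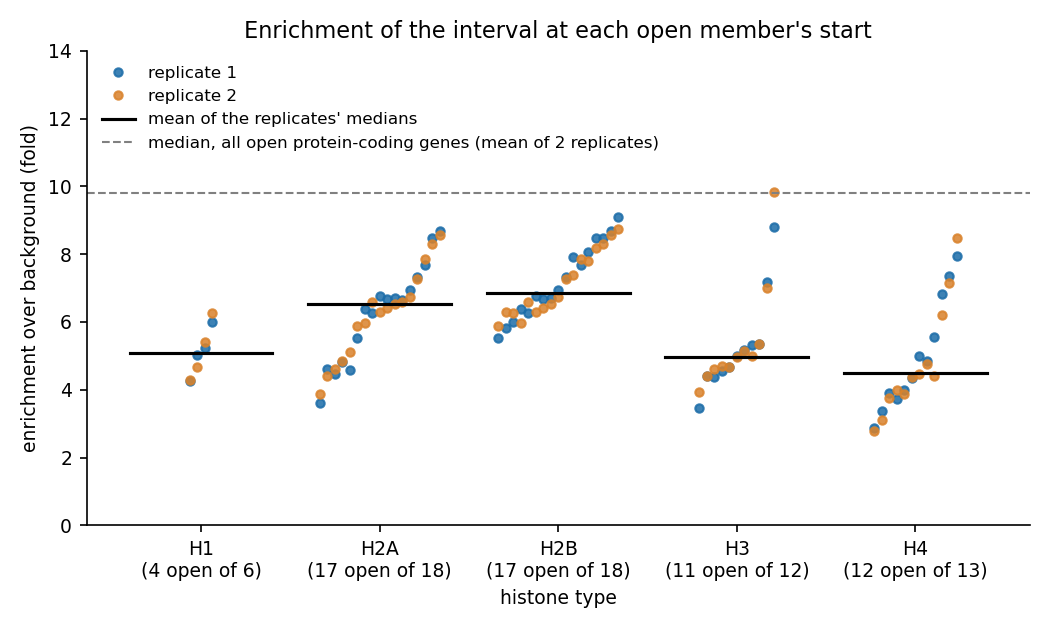
Enrichment over background (y axis, fold) of the interval at the start of each open histone gene, by histone type (x axis); points are single genes, 1 color per replicate, bars are the mean of the replicates' medians. H2A and H2B genes sit around 6.54 and 6.85 and H4 genes around 4.50. The dashed line (9.80) is the median over all open protein-coding genes of the strongest interval within 1 kb. That is a different measure from the nearest interval of the points. All but 1 value of Hist1h3e lie under it.

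H2A and H2B, which join as a dimer in the nucleosome, are often encoded in head-to-head pairs that share the DNA between their starts. There were 13 head-to-head pairs (starts within 1 kb, transcribed away from each other), 12 of them of 1 H2A and 1 H2B gene, with starts 176 to 660 bp apart (median 279 bp). In 12 pairs both genes were open. In 11 of these, each replicate had 1 interval that spanned both starts, with its strongest summit between them. Those intervals had a median enrichment of 6.76 and 6.59 and a median width of 407 bp and 403 bp. The remaining open pair, Hist1h2bh and Hist1h3f (an H2B and an H3 gene, 660 bp apart), had an interval at each start.

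Paired members were open in 24 of 26 cases and unpaired members in 37 of 41. The paired open genes had a median enrichment of 6.86 and 6.67, and the unpaired 4.99 and 4.77. The 11 open unpaired H2A and H2B genes had medians of 5.82 and 6.26, between both values. A pair with a common interval enters the paired median as 2 genes with 1 value.

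To show what lies under these shared intervals, the DNA between the starts is printed for the pair of the highest enrichment, for the pair of the lowest, and for the only pair with no open member. Sequences are from the plus strand of GRCm38.p6 (mm10), and capitals mark the TATA box letters TATAAA, the letters CCAAT to which the factor NF-Y binds, and the octamer ATTTGCAT with up to 1 mismatch, on either strand. Each stretch runs between the most upstream start of either gene in GENCODE or RefSeq, so it can be shorter than the distance between the GENCODE starts used for the calls, which is 251 bp, 185 bp and 306 bp for these pairs. The stretches are chr13:23683960-23684198, chr13:23574208-23574380 and chr13:23934157-23934436, with the first gene of each name on the minus strand.

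Hist1h2ac/Hist1h2bc: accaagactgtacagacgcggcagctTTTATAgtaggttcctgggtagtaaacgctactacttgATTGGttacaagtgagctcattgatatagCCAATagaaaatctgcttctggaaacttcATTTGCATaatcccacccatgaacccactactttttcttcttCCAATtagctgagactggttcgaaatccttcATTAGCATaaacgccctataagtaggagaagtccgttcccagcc
Hist1h2bf/Hist1h2ad: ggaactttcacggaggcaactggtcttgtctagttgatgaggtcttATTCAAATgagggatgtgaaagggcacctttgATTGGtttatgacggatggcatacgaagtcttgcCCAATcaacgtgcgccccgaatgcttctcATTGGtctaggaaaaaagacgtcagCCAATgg
Hist1h2ba/Hist1h2aa: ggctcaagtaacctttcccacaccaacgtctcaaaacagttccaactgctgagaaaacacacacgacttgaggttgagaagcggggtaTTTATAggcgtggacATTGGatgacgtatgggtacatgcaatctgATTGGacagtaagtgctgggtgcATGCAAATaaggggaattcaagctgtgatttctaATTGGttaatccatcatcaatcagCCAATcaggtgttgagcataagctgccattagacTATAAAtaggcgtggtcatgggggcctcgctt

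Hist1h2ac and Hist1h2bc, in 13C, shared an interval with an enrichment of 8.68 in replicate 1 and 8.55 in replicate 2 (mean 8.62 ± 0.0901). Their 239 bp hold 3 CCAAT, 1 TATAAA and 2 octamer forms. Hist1h2bf and Hist1h2ad shared an interval of 5.54 and 5.88 (mean 5.71 ± 0.242), and their 173 bp hold 4 CCAAT, no TATAAA and 1 octamer form. Hist1h2ba and Hist1h2aa, which had no interval in any list used, have 4 CCAAT, 2 TATAAA and 1 octamer form in 280 bp.

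The most enriched H2A genes were Hist1h2ac, Hist1h2ao (8.47 and 8.29), Hist1h2ah (7.67 and 7.86) and Hist1h2ap (7.33 and 7.28). Each of these sits in a pair and takes its value from the interval it shares with its H2B partner. Hist1h2bh, an H2B gene of 13C, had the highest value of that type with 9.10 and 8.73 (mean 8.91 ± 0.260). It was followed by Hist1h2bc, Hist1h2bq (8.47 and 8.29) and the unpaired Hist2h2bb of chromosome 3 (8.49 and 8.19). Hist1h2ao, Hist1h2ap and Hist1h2bq are among the near-identical copies described below, so their values and ranks cannot be assigned to 1 gene. Hist2h2bb lies at the end of its cluster and had an interval of 1376 bp and 1383 bp, far above the median width of the family.

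At the cluster ends, Hist1h2bl, the first gene of 13A, had 6.69 and 6.41, and Hist1h2br, its last, 7.33 and 7.28. Hist1h2br is also among the near-identical copies. Hist1h2bj at the end of 13B had 6.39 and 5.98. Hist3h2ba on chromosome 11 had 7.91 and 7.38, in a wide interval of 1517 bp and 1419 bp, and Hist3h2a beside it 6.66 and 6.58. Hist2h2ab, the first H2A gene of the chromosome 3 group, was lower with 4.59 and 5.11.

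The H3 genes, which encode the core histone whose tail carries many regulatory marks, included the promoter with the highest mean enrichment of the family. Hist1h3e had 8.79 in replicate 1 and 9.82 in replicate 2 (mean 9.31 ± 0.729), the highest mean of all 67 genes. In replicate 1 Hist1h2bh was higher, with 9.10, so the first rank differed between replicates. Among the H3 genes, Hist1h3f followed with 7.19 and 6.99, then Hist2h3c1 with 5.36 and 5.35 and Hist1h3g with 5.33 and 5.01. Hist2h3c1 is among the near-identical copies described below. Hist1h3i, in 13A, was open in replicate 1 only, with an interval of 189 bp and an enrichment of 2.68, at the 0.326th percentile of its list. Each replicate's less strict list held it, as did the authors' list pooled over both.

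The H4 genes, which encode the partner of H3 in the nucleosome core, ran from the least enriched open gene of the family to values near those of the strongest pairs. Hist1h4c had 7.95 and 8.47 (mean 8.21 ± 0.366), Hist1h4j 7.35 and 7.16, Hist2h4 6.81 and 6.21, and Hist1h4m 5.57 and 4.41. Hist1h4m is among the near-identical copies described below. Hist1h4a had the lowest value, 2.86 and 2.77 (mean 2.81), at the 0.540th and 0.425th percentile. Hist1h4h, the first gene of 13C, had 4.0 and 3.86. Hist1h4b was open in replicate 1 only, with an enrichment of 4.47 and a width of 337 bp, and like Hist1h3i it was in each replicate's less strict list and in the pooled list.

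The 150 bp upstream of the most and of the least enriched unpaired genes show how different 2 open histone promoters can be. They are counted from the gene's most upstream start, which is here the RefSeq start and not the GENCODE start used for the calls. Both are written 5′ to 3′ on the gene's own strand, which is minus, from chr13:23562386-23562535 and chr13:23761250-23761399, with capitals as above.

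Hist1h3e: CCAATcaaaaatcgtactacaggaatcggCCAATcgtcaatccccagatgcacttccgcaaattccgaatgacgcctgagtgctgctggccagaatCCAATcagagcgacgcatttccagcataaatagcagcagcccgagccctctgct
Hist1h4a: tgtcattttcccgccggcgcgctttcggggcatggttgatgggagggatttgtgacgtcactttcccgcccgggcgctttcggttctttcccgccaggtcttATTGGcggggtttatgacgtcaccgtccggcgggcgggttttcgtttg

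Hist1h3e has 3 CCAAT, and its ratio of observed to expected CpG in this stretch is 0.938. Hist1h4a has 1 CCAAT and a CpG ratio of 1.32. Neither holds TATAAA or an octamer form in these bases.

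The median interval was wider at the open linker histone genes than at any type of core gene. The nearest interval of the 4 open H1 genes had a median width of 1616 bp and 1541 bp, against 407 bp and 409 bp for H2A, 414 bp and 420 bp for H2B, 479 bp and 369 bp for H3, and 395 bp and 572 bp for H4. It covered a median of 94% and 97% of the H1 gene, where for the 4 core types the medians lay between 12.7% and 25.1%. Hist1h1e had an interval of 2022 bp and 2028 bp (enrichment 5.99 and 6.26), Hist1h1c of 1570 bp and 1599 bp (5.22 and 5.42), and Hist1h1b of 1663 bp and 1483 bp (4.26 and 4.29). The Hist1h1e interval also covers the annotated start of the H2B gene Hist1h2be. Hist1h1a was narrower with 684 bp and 924 bp (5.02 and 4.67). Width also varied by cluster among groups that hold core genes alone. The medians were 1516 bp and 1114 bp on chromosome 11 and 881 bp and 854 bp on chromosome 3. Hist4h4 on chromosome 6 had 1271 bp and 1240 bp. In 13B, which also holds core genes alone, they were narrow, with 398 bp and 403 bp. In 13A and 13C, where the open H1 genes lie, they were 407 bp and 402 bp, and 416 bp and 428 bp. With 4 genes this is a description, and the H1 coding sequence is longer than that of the core histones.

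At 5 open members the strongest summit lay past the stop codon in both replicates. It was 593 bp and 598 bp past it at Hist1h1e, 336 bp and 349 bp at Hist1h1b, and 128 bp and 141 bp at Hist1h1c. The same held for 2 H4 genes outside chromosome 13, Hist2h4 (602 bp and 600 bp) and Hist4h4 (205 bp and 213 bp), whose intervals were 1324 bp and 1338 bp and 1271 bp and 1240 bp wide. Hist4h4 had an enrichment of 4.86 and 4.77. When the strongest summit, and not any part of the interval, had to lie within 1 kb of the start, Hist1h1b and Hist1h1e were no longer open and 2 of 6 H1 genes were. Hist1h3f was the only other open member with its strongest summit downstream of the annotated start, and there it lay upstream of the coding start.

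**Figure D3:**
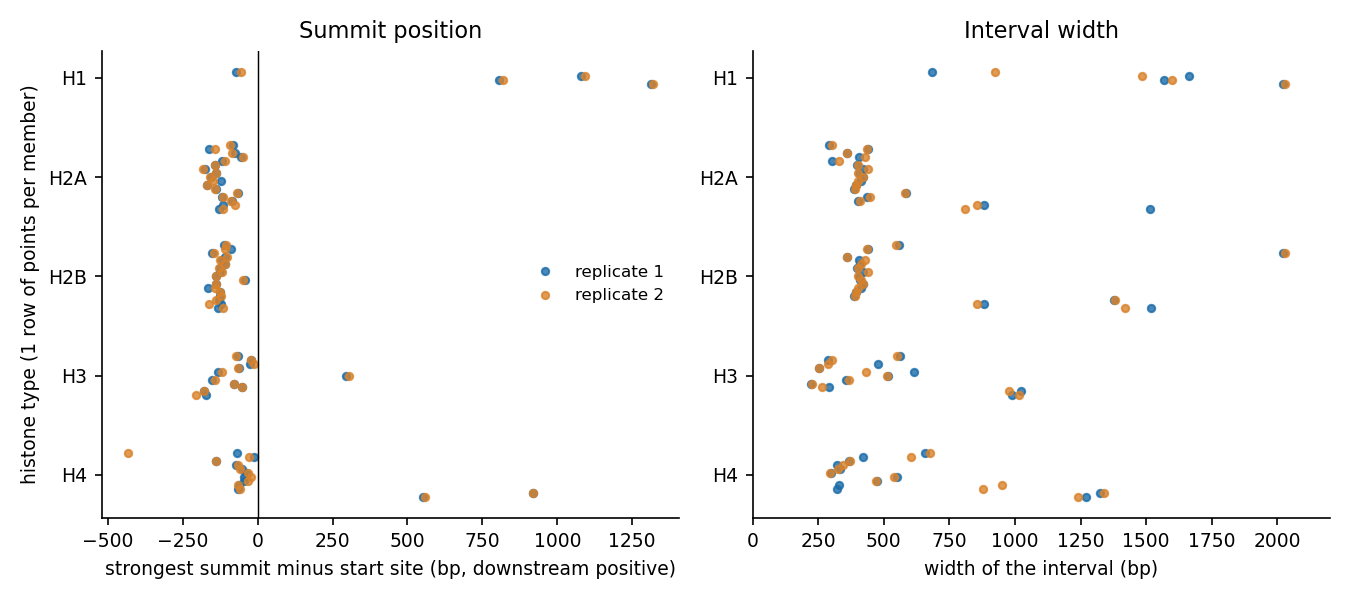
Position of the strongest summit relative to the start site (left x axis, bp, downstream positive) and width of the nearest interval (right x axis, bp) for the 61 open members, by histone type (y axis, 1 row of points per gene, 1 color per replicate). Most points lie within 150 bp of the start on its upstream side and near 420 bp in width; 3 of the 4 H1 genes and 2 H4 genes stand far to the right in both panels.

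2 members have an annotated start far from their coding sequence, and their calls follow that start. The annotated start of Hist1h1d, a linker histone gene, lies 1828 bp upstream of its coding start, and no interval was within 1 kb of it. At its coding start each replicate had an interval of 1654 bp and 1662 bp with an enrichment of 4.12 and 4.28, and this interval holds the RefSeq start 23555032. The RefSeq start is thus open while the annotated start is not. To show this start, the 250 bp upstream of it (chr13:23554782-23555031, plus strand) are printed, with capitals as above.

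Hist1h1d: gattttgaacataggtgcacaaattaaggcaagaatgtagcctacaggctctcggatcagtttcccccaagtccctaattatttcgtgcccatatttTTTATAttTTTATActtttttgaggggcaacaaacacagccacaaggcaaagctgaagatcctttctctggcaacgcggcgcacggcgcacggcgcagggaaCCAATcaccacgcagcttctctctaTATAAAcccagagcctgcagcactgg

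This stretch holds 1 CCAAT and 3 TATAAA, the last of them close to the start. The other gene is Hist1h2be, an H2B gene whose annotated start lies 35138 bp from its coding start, beside Hist1h1e. It was called open through the Hist1h1e interval. At its own coding start, near the RefSeq start 23585970, each replicate had a further interval of 285 bp and 284 bp with 5.84 and 6.25. Over the 62 members with a RefSeq promoter entry, 57 were open at a RefSeq start.

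The 3 members known from spermatogenesis were closed. Hist1h1t, the testis H1 gene inside 13C, had no interval in either replicate's thresholded or less strict list, nor in the pooled list. The testis H2B and H2A genes Hist1h2ba and Hist1h2aa had none either. Without these 3 genes, 61 of 64 members were open (95.3%, 87.1% to 98.4%). Hist1h1t lies among open members, while Hist1h2ba and Hist1h2aa lie 170490 bp beyond Hist1h1a, the last open member of 13C.

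Several members are near-identical copies, and their values cannot be assigned to 1 gene. The share of 50-base words within 1 kb of the start that occur once in the reference was 0% for Hist1h2bq, Hist1h2ao, Hist1h2ap and Hist1h2br, 7.02% for Hist1h4m and 8.04% for Hist1h4n. It was 21.5% and 22.4% for Hist2h3c1 and Hist2h3c2, and 42.8% and 45.6% for Hist2h2aa2 and Hist2h2aa1. The other 57 members had 60.6% or more. Within 250 bp of the start, nearer to where the intervals lie, these members ran from 54.6% (Hist1h3h and Hist1h2an) to 100%. The sources used here do not say how reads with several matches were treated. The gene with the largest replicate difference, Hist1h4m, is among these copies, and all 10 were open.

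Across the chromosome 13 clusters, open sites were packed far more tightly than on the rest of the chromosome. In the cluster spans with 5 kb added on each side, replicate 1 had 19 intervals in 13A, 4 in 13B and 37 in 13C, and replicate 2 had 18, 4 and 39. This is a mean of 145 ± 5.54 intervals per Mb in 13A, 227 in 13B and 91.9 ± 3.42 in 13C (SD, n = 2), against 6.22 ± 0.235 over chromosome 13. The median distance between neighbouring strongest summits was 3.90 kb and 3.45 kb in 13A (mean 3.67 ± 0.318), 1.69 kb in each replicate in 13B, and 4.0 kb and 3.17 kb in 13C (mean 3.59 ± 0.591). Over the whole chromosome it was 27.3 kb and 26.2 kb (mean 26.8 ± 0.728). The counts and distances of 13A include the intervals at the near-identical copies Hist1h2bq, Hist1h2ao, Hist1h4m, Hist1h4n, Hist1h2ap and Hist1h2br. Their signal cannot be assigned to 1 place.

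The spacing of the peaks was of the same order as that of the genes. Neighbouring member starts were 2.75 kb apart in the median in 13A, 0.942 kb in 13B and 2.83 kb in 13C. In 13A, 7 of 18 distances in replicate 1 and 8 of 17 in replicate 2 were under 2 kb, and 5 in each were over 10 kb. In 13C, 13 of 36 and 16 of 38 were under 2 kb. With the authors' less strict lists the medians were 1.18 kb, 1.05 kb and 2.73 kb. With every summit of an interval counted, they were 0.903 kb in 13A and 0.768 kb in 13C.

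The longest distances in 13A and 13C lay between runs of histone genes. The longest in 13C was 62.9 kb and 62.8 kb, from the Hist1h1e interval to the Hist1h2ac and Hist1h2bc pair. The next was 31.3 kb in each replicate and holds the start of Hfe, the iron regulator mutated in hereditary hemochromatosis, which was not open. The longest in 13A was 24.7 kb in each replicate and holds no protein-coding start. Beyond Hist1h1a, 13C had 1 interval in replicate 1 and 2 in replicate 2 in 171 kb, and the stretch up to there had 150 ± 2.91 intervals per Mb, close to 13A.

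The stretches between the clusters held fewer open sites. Between 13A and 13B (192 kb) there were 6 and 7 intervals. Between 13B and 13C (1478 kb) there were 13 and 16, or 9.81 ± 1.44 per Mb, with 1318 kb free of intervals in each replicate. That stretch holds 36 vomeronasal receptor genes (Vmn1r), which serve pheromone sensing, and 0 of them were open. Of all 40 protein-coding genes there, 3 were open: Zfp322a (14 and 13.8), Abt1 (7.27 and 8.91) and Btn1a1 (6.23 and 5.13).

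**Figure D4:**
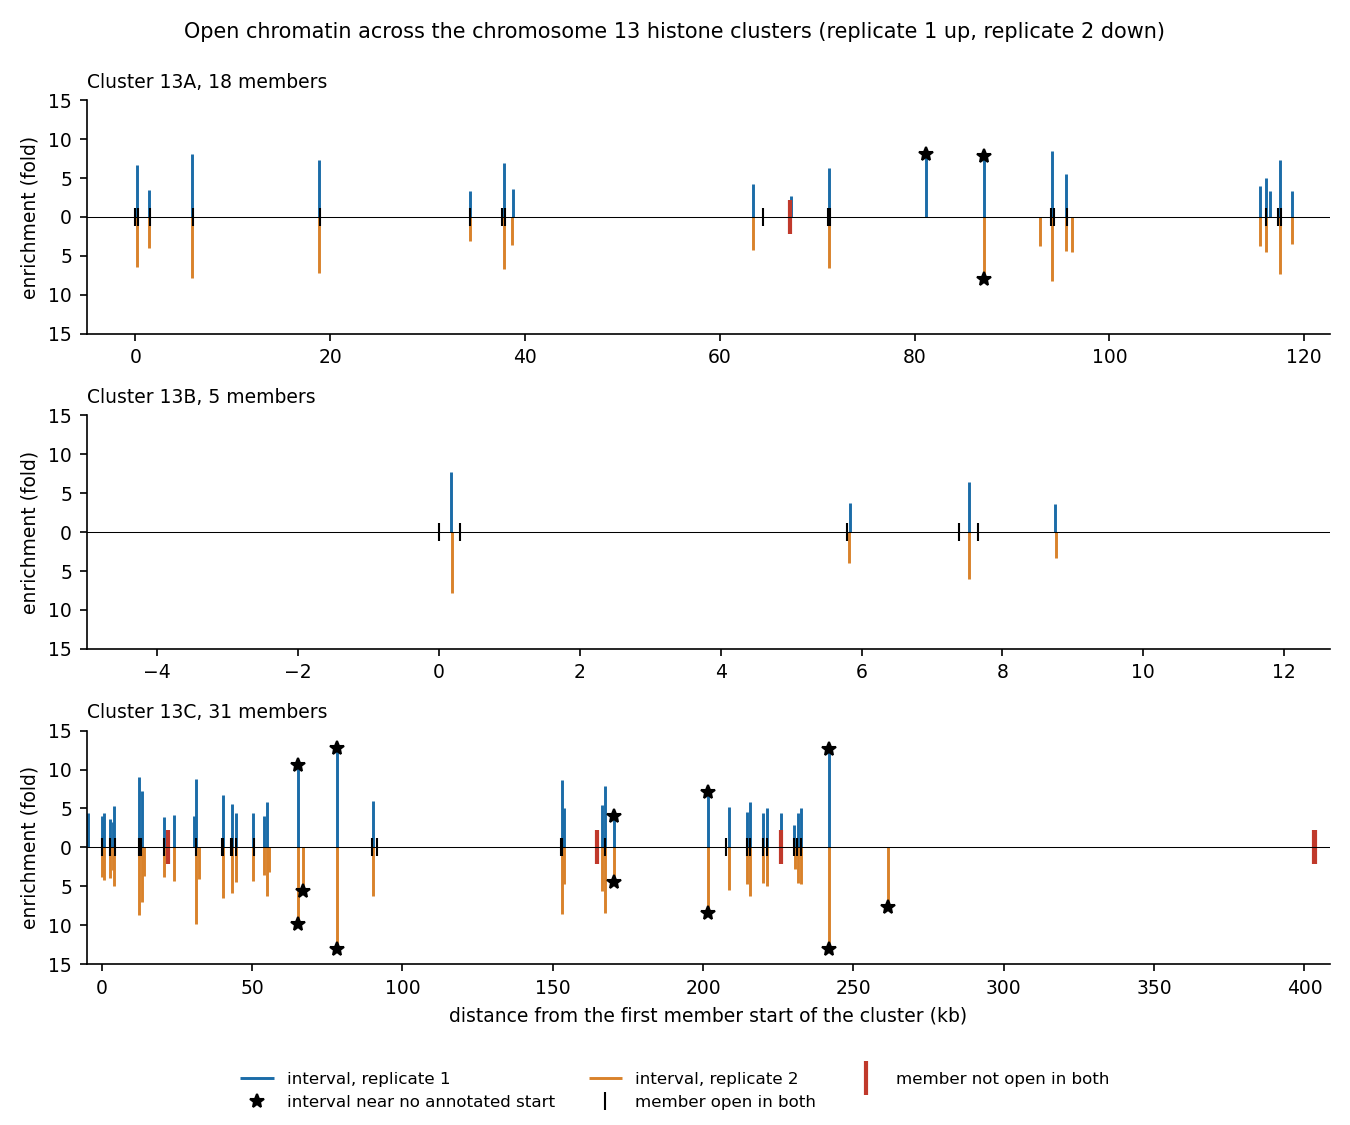
Intervals across clusters 13A, 13B and 13C by distance from the first member start (x axis, kb) and enrichment (y axis, fold; replicate 1 upward, replicate 2 downward); ticks on the zero line are member starts (black open, red not open) and stars are intervals near no annotated start. The lines recur at the same places in both replicates, the 3 tallest of 13C carry stars, and the right end of 13C with Hist1h2ba and Hist1h2aa is empty.

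Most open sites in these clusters lay within 1 kb of a histone start, but the strongest did not. Of the 60 intervals in replicate 1 and 61 in replicate 2, 49 in each lay within 1 kb of a member start. The median enrichment of these was 5.00 and 4.67. They include intervals that cover no member start, such as chr13:22044183-22044445 beside Hist1h2bj. Counted per gene, the nearest intervals of the 61 open members of all clusters had medians of 5.99 and 6.21. Of the same 60 and 61 intervals, a further 7 and 8 lay within 1 kb of no annotated start of any gene, with medians of 8.06 and 8.27. The same 3 places were the 3 strongest of all intervals of the clusters in each replicate, and all lie in 13C: chr13:23608960-23609722 (12.8 in replicate 1, 13 in replicate 2), chr13:23772410-23772945 (12.7 and 13.1) and chr13:23596025-23596559 (10.6 and 9.90). The coordinates are those of replicate 1. The first and the last of these places lie within the annotated span of Hist1h2be, and the second within that of Trim38, whose promoter was not open. The strongest histone promoter intervals there were those of Hist1h2bh (9.10 and 8.73) and Hist1h3e (8.79 and 9.82).

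The 151 bp around the summit of the strongest of these sites in replicate 1 (chr13:23609285-23609435, plus strand) are printed to set it beside the promoters. Capitals mark AGATAA, a form of the site bound by the erythroid factor GATA1, and TGACTCA, the site of the AP-1 and NF-E2 family, on either strand.

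Site near no annotated start in 13C: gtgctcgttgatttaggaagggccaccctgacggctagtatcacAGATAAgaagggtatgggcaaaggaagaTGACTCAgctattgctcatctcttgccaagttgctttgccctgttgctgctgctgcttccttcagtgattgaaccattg

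It holds 1 AGATAA and 1 TGACTCA. Around the summits of the intervals near no annotated start, AGATAA occurred in 2 of 7 in replicate 1 and 2 of 8 in replicate 2. Around those within 1 kb of member starts it occurred in 2 of 49 in each replicate (4.08%), against 13% and 12.9% of all intervals of the lists. TGACTCA occurred in 0 and 1 of the 49, against 5.03% and 5.15% of all intervals. Matches of the 2 motifs were counted separately, and a match describes letters only.

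Of the upstream letters counted, the octamer set H2A and H2B genes apart, while CCAAT was also in most H1 and H3 genes. In the 250 bp upstream of the start, on either strand, CCAAT was in 36 of 36 H2A and H2B genes, in 9 of 12 H3, 4 of 13 H4 and 5 of 6 H1 genes, and in 34.1% of all protein-coding genes. ATTTGCAT, the octamer bound by POU2F1, was in 15 of 36 H2A and H2B genes without a mismatch and in 31 of 36 with up to 1. In H1, H3 and H4 genes it was in 0 without a mismatch, and in 1 of each type with up to 1. Over all genes these shares were 1.63% and 15.5%. Paired genes share these bases, so their matches are counted for both, and matches of different motifs are counted separately even where they overlap. For Hist1h1d and Hist1h2be the bases are those at the distant annotated starts, 1828 bp and 35138 bp from the coding starts. Hist1h1d is the H1 gene without CCAAT, but it has 1 upstream of its RefSeq start.

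TATAAA was in 34 of 67 members (50.7%), against 12.5% of all genes. It was in 10 of 18 H2A, 10 of 18 H2B, 4 of 12 H3, 6 of 13 H4 and 4 of 6 H1 genes. The ratio of observed to expected CpG had a median of 0.715 over the members and 0.469 over all genes. The 50 open members with CCAAT had a median enrichment of 6.39 and 6.29, and the 11 without it 4.99 and 4.45. For the octamer with up to 1 mismatch the medians were 6.73 and 6.58 in the 32 with it and 4.99 and 4.71 in the 29 without it. For TATAAA they were 5.91 and 6.27 in the 30 with it and 6.39 and 5.98 in the 31 without it, so the order differed between replicates. The types differ in CCAAT and in the octamer, and the part of the motifs was not tested.

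The 3′ stem-loop, the mark of these messenger RNAs, was sought as GGCTCTTNNNAGAGCC with up to 2 mismatches within 150 bases after the stop codon. It was found in 64 of 67 members (95.5%). Over the 19435 protein-coding genes with an annotated stop codon, these members included, 121 had a match (0.623%). In the members it lay close behind the stop codon. It began 22 to 59 bases after the stop codon (median 31.5). To show its forms, the 3 commonest are printed on the gene's strand, with the stem in capitals and the loop in lower case.

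Form in 41 members: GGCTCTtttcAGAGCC
Form in 9 members: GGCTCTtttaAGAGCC
Form in 8 members: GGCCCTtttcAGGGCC

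H1, H2A, H2B and H3 genes matched the searched letters without a mismatch in 52 of 54 cases. The 11 H4 genes with a match all differed from these letters at 2 bases. Their stem arms, GGCCCT and AGGGCC, are complementary to each other, so the mismatches are to the searched letters and not within the stem. No match was found for Hist1h4b, Hist1h4j and Hist2h2be. Among the members that were not open, 5 of 6 matched the searched letters without a mismatch, the 3 testis genes among them.

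The listed genes that make and process histone messages were open throughout. Of 26 genes listed for the regulators of histone transcription and the processing of its RNA, 26 were open in both replicates. Over all protein-coding genes the share was 41.4%. This list and the next were chosen with earlier results of these data known. Npat, the coactivator of the histone locus body, had an enrichment of 11.4 and 11.5, Casp8ap2, a further component of that body, 13.6 and 13.9, and Slbp, the stem-loop binding protein, 7.11 and 7.95. Hinfp, a regulator of H4 transcription, had 13.9 and 13.2. All 14 listed histone chaperone genes were open too, from Chaf1a (6.41 and 6.58), a subunit of the assembly factor CAF-1, to Hat1 (16.3 and 16.6), which acetylates new H4.

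The replication-independent histone genes, which are transcribed outside S phase or in special cells, were open in 7 of 19 cases (36.8%, 19.1% to 59.0%), a share near that of all genes (41.4%). Open were H2afz, H2afv, H2afx, H2afj, H3f3a, H3f3b and Cenpa, with means from 5.59 (H3f3a) to 12.3 (H2afv). H2afy, which encodes macroH2A1, was not in either replicate's thresholded list but was in the less strict lists, with 5.37 and 6.51. H2afy2, the linker genes H1f0 and H1fx, and H1fnt, H1foo, Hils1, H2afb1, H2afb2, H2afb3, H2bfm and H2al2a had no interval within 1 kb in either kind of list. Several of these, such as H1foo of the oocyte and Hils1 of the spermatid, are known from germ cells.

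Other genes beside the chromosome 13 clusters were closed. Within 50 kb of the clusters, 0 of 12 other protein-coding genes on chromosome 13 were open, among them Hfe, Trim38, Prss16 and the Slc17a transporters. Beside the clusters on chromosomes 3, 6 and 11, 10 of 15 were open. These included Wbp11 near Hist4h4 (13.7 and 13.8) and Sf3b4 near the chromosome 3 genes (10.3 and 10.7), both above each of the 61 open members. Trim17, counted among the 10, starts at the same base as Hist3h2a and has that interval's values (6.66 and 6.58). The difference between the chromosomes was not tested, and these genes are few.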

How the data were processed

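ATAC-seq peak lists of 2 replicates of 1 group were used, in mm10 coordinates per the labels. In the sources used here, the aligner, the peak caller, their versions, the read length and the treatment of reads with several matches are not given. In the deposited lists, the authors' enrichment is a fold (ratio) of a summit over background. Each replicate's thresholded list served for the calls, and its longer pseudoreplicated list and the pooled thresholded list as alternatives. An interval repeated for several summits was taken once with its strongest summit, on chromosomes 1 to 19, X and Y.

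Start sites came from GENCODE M21, sequences from the GRCm38.p6 genome and further starts from the RefSeq promoter table (GRCm38.p6). Counts have 95% Wilson intervals, values are given per replicate or as mean and SD (n = 2), and no test was run, since there was 1 group. Calls were checked on simulated intervals. Python 3.11.15, pandas 2.3.3 and scipy 1.17.1 were used.

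The members and lists were chosen with earlier results of these data known. Named were members not open, the 4 most enriched open members of each type, first and last members of clusters, testis members, the 5 with the widest interval, members of printed pairs and list genes not open. Other names were chosen after their values were seen, as were the nearest-interval values, the 50-base words, the RefSeq starts, the motifs AGATAA and TGACTCA, and the summits past the stop codon.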

Additional observations from a re-analysis of the deposited data

How the results depend on the processing

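The number of open members was 61 under the 500 bp window, the overlap of the start itself and the outermost 5′ end. It was 63 with the less strict lists, the pooled list or replicate 1 alone (Hist1h3i and Hist1h4b were added), and 61 with replicate 2 alone. Of 201 alternative values, 173 stayed within 1.5 times (counts) or 1 SD (medians). Restricting the lists to intervals at or above their median enrichment moved the counts most. It left 11 members: 3 in 13A, 0 in 13B, 6 in 13C, 2 on chromosome 3 and 0 on chromosomes 11 and 6. By type it left 0 H1, 2 H2A, 5 H2B, 3 H3 and 1 H4, with 6 in pairs and 5 in none. It also left 4 replication-independent histone genes and 5 other genes beside the clusters. With the strongest summit within 1 kb in place of the interval, Hist1h1b and Hist1h1e were lost and 2 H1 genes were open.

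The median enrichment was 6.10 with the nearest interval and 6.34 without the near-identical copies. The median summit spacing moved most. It was 1.18 kb in 13A, 1.05 kb in 13B and 2.73 kb in 13C with the less strict lists, and 3.06 kb in 13A and 1.34 kb in 13B between interval edges. With every summit it was 0.903 kb in 13A and 0.768 kb in 13C. With only intervals shared by the other replicate over at least 1 bp, or over 50 percent of their length, 13A had 4.17 kb and 4.82 kb. These settings count more, or fewer, positions by construction. Leaving out a replicate gave 3.45 to 3.90 kb in 13A and 3.17 to 4.0 kb in 13C. No paired analysis was possible because there was 1 group. The lists hold no read counts, so what depth limits could not be computed.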
